A study of Homo sapiens with 4 samples.

Results

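The regions described here are peaks of RNA recovered with the protein HuR from irradiated cells that each lay against several separate peaks of the unirradiated cells. HuR was recovered by RNA immunoprecipitation followed by sequencing (RIP-seq) from WS1, a human skin fibroblast line. The cells had received either no X-rays (0 Gy) or 5 Gy of X-rays. Each dose has 1 HuR library and 1 library from a control pull-down with immunoglobulin (IgG), 4 libraries in all, and 1 deposited list of peaks of HuR over IgG. The regions were chosen by the positions of the peaks in both lists. A 5 Gy peak was taken when at least 1 bp of it overlapped each of 2 or more 0 Gy peaks. This held for 3361 of the 36216 peaks at 5 Gy, or 9.28%. The reverse case, a 0 Gy peak over 2 or more 5 Gy peaks, held for 2297 of the 47930 peaks at 0 Gy, or 4.79%. The 0 Gy list holds more peaks to lie against, and when only its 36216 highest-scoring peaks were kept, as many as at 5 Gy, the counts were 2530 and 2190. These counts are the rule itself and are given as a description. All positions are on the genome build hg19, with the start counted from 1. No replicate exists at either dose, the depth of the libraries is unknown, and no test between the doses was made. Intervals are at the 95% level, take each peak as independent of the others, and reflect counting error alone.

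HuR, the product of ELAVL1, is an RNA-binding protein that recognises U-rich and AU-rich stretches, often in introns and 3′ ends of transcripts, and is best known for stabilising the mRNAs it binds. It is mostly nuclear and can move to the cytoplasm after stress, DNA damage included. In RIP-seq a peak is a stretch of genome where reads from the HuR library exceed those from the IgG library. A long bound or well recovered transcript can therefore appear as 1 long peak or as a row of shorter peaks with gaps between them, where a gap is sequence in which the excess did not reach the caller's threshold.

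The name "fused" covers only part of these regions. In 457 of the 3361 (13.6%, interval 12.5 to 14.8) every 0 Gy peak lay wholly inside the 5 Gy peak. In the other 2904 at least 1 of the outer 0 Gy peaks reached past an end of the 5 Gy peak, by a median of 477 bp in all. The 5 Gy peak was shorter than the summed length of the 0 Gy peaks it touched in 2060 cases (61.3%). The regions are therefore called bridging peaks here, since what they all share is a gap of the other list that they span. In the reverse case 199 of 2297 (8.66%, interval 7.58 to 9.88) held every 5 Gy peak wholly inside.

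Most bridging 5 Gy peaks spanned 1 gap. There were 2855 over exactly 2 peaks of the 0 Gy list (84.9%), 399 over 3, 75 over 4, 25 over 5, 4 over 6, 2 over 7 and 1 over 8. Together they touched 7113 different 0 Gy peaks, or 14.8% of that list, and 265 of these were touched by 2 bridging peaks. The reverse case was less often over many peaks, with 89.7% over exactly 2 and 38 peaks over at least 4, against 107 such peaks at 5 Gy. In 1366 cases the group of overlapping peaks also held another 5 Gy peak, so that the borders at the 2 doses were staggered. In 1995 cases (59.4%) the bridging peak was the only 5 Gy peak in its group, and in the reverse case 1003 of 2297 (43.7%) were the only 0 Gy peak.

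The sequence newly covered in the gaps was short. A bridging 5 Gy peak spanned a median of 1382 bp (interval 1327 to 1426), of which a median of 100 bp (interval 95 to 105) lay in gaps of the 0 Gy list. The middle 50% of these values ran from 39 to 240 bp. The gaps came to 7.68% of the peak's length in the median, and their sum ranged from 1 to 4700 bp per peak. At most 100 bp of gap was covered by 1692 bridging peaks (50.3%), at least 500 bp by 301 (8.96%) and at least 1000 bp by 58 (1.73%). The centre of the widest gap lay at a median of 30.3% of the peak's length from the nearer end.

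Summed over the genome, the bridging 5 Gy peaks covered 6443 kb, which is 18.6% of the 34.7 Mb covered at 5 Gy. Gaps accounted for 637 kb of this. That is 6.96% of the 9161 kb covered at 5 Gy and not at 0 Gy. A further 428 kb lay beyond the outermost 0 Gy peaks, and 1490 bridging peaks (44.3%) had no such extension at either end. The 0 Gy peaks they touched held 2342 kb outside the bridging peak, with a 0 Gy peak touched by 2 of them counted under each. Part of this was covered by other 5 Gy peaks, which 1366 bridging peaks had in their group. The 2342 kb therefore overstates the sequence of these 0 Gy peaks that was not covered at 5 Gy. For the 1995 bridging peaks that were alone in their group, no other 5 Gy peak covered any of it. In the reverse case the gaps came to 367 kb, or 2.98% of the 12300 kb covered at 0 Gy and not at 5 Gy, and the median gap sequence per peak was 85 bp (interval 79 to 90).

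**Figure D1:**
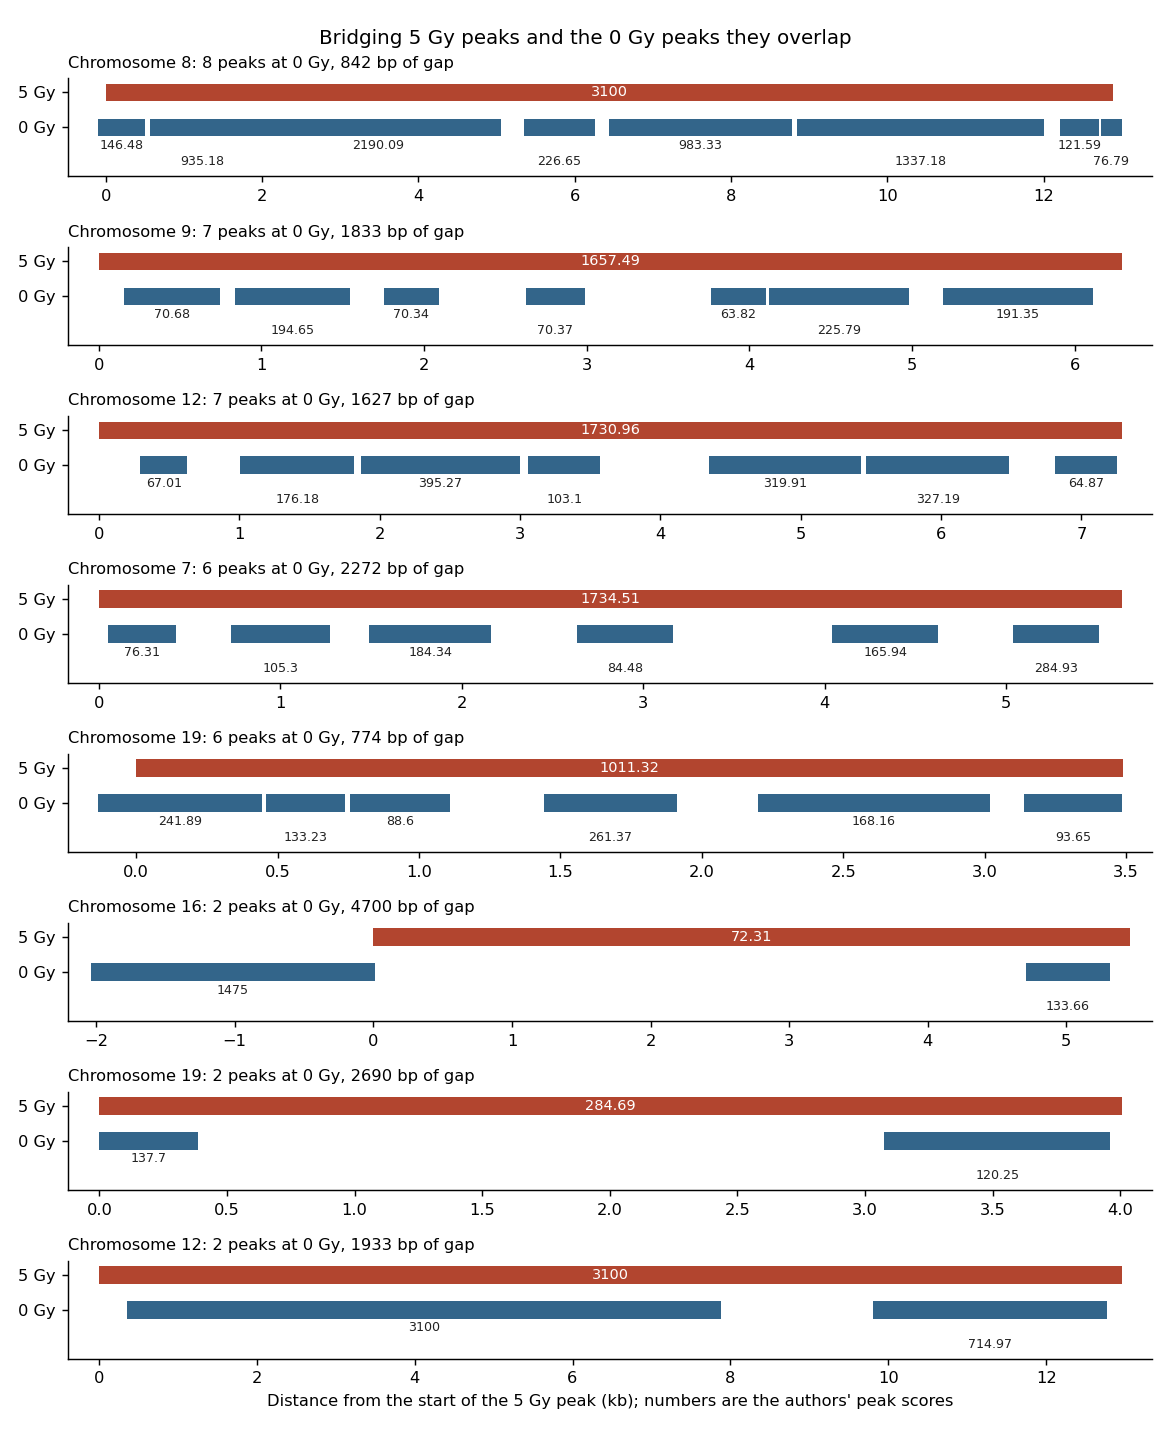
Maps of 8 bridging 5 Gy peaks (red bars) and the 0 Gy peaks they overlap (blue bars), drawn to scale as distance in kb from the start of the 5 Gy peak, with the authors' peak scores printed on or under the bars. In the top map 8 peaks of 0 Gy lie under 1 peak of 12887 bp, and the gap of 4 bp between the second and the third is too narrow to see. In the sixth map the 5 Gy peak overlaps the left 0 Gy peak by 11 bp only.

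The bridging peaks over the most 0 Gy peaks had higher scores than any of these. The score, assigned by the authors to each peak, has its minimum at 60.00 for 0 Gy and at 60.01 for 5 Gy, and many of the strongest peaks are tied at 3100. On chromosome 8 a 5 Gy peak from 128806023 to 128818909 with the tied score of 3100 lay over 8 peaks of the 0 Gy list. Their scores ran from 76.79 to 2190.09, and the 7 gaps between them measured 70, 4, 291, 190, 66, 203 and 18 bp. The gaps made up 6.53% of the 5 Gy peak, so the 0 Gy list already covered nearly all of it.

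On chromosome 9 a 5 Gy peak of 6290 bp (117546915 to 117553204) scored 1657.49 and lay over 7 peaks of the 0 Gy list, all wholly inside. These scored between 63.82 and 225.79 and were 339 to 925 bp long. The gaps summed to 1833 bp, or 29.1% of the peak, and the widest measured 772 bp. The 5 Gy peak thus stood at percentile 90.8 of its list, while the 0 Gy peaks under it included 4 with scores of 63.82 to 70.68, close to the lowest score of the list.

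Rows of 6 or 7 peaks of 0 Gy also lay under 5 Gy peaks on chromosomes 12, 7 and 19. On chromosome 12 (120696330 to 120703616, 7287 bp, score 1730.96) 7 peaks of 0 Gy scored 64.87 to 395.27, with 1627 bp of gap. On chromosome 7 (5547922 to 5553558, 5637 bp, score 1734.51) 6 peaks of 0 Gy scored 76.31 to 284.93, and their gaps of 214 to 874 bp came to 40.3% of the 5 Gy peak. On chromosome 19 (34936461 to 34939948, 3488 bp, score 1011.32) 6 peaks of 0 Gy scored 88.60 to 261.37. In the first 2 of these all 0 Gy peaks lay inside the 5 Gy peak, and on chromosome 19 the leftmost reached out by 136 bp.

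Each of the 5 widest gaps was spanned by a peak over only 2 peaks of the 0 Gy list. The widest, 4700 bp on chromosome 16, was spanned by a 5 Gy peak (70559731 to 70565187) with a score of 72.31, close to the lowest of its list. It overlapped the left 0 Gy peak, which scored 1475, by 11 bp, and the right one scored 133.66. Its call as a bridging peak therefore rests on the 1 bp rule. The left 0 Gy peak reached 2039 bp past the bridging peak and also overlapped another 5 Gy peak. The scores of 1475 and 72.31 are therefore not those of a matched pair. On chromosome 19 a gap of 2690 bp lay inside a 5 Gy peak of 4006 bp (11038995 to 11043000, score 284.69), between 0 Gy peaks with scores of 137.70 and 120.25. On the same chromosome a gap of 2239 bp lay inside a 5 Gy peak of 3028 bp (52517260 to 52520287, score 223.64), and the 0 Gy peaks beside it scored 62.30 and 61.30.

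On chromosome 12, 2 of the widest gaps lay between peaks that were already strong at 0 Gy. From 124063901 to 124075217 a 5 Gy peak of 11317 bp tied at 3100 spanned a gap of 2566 bp between 0 Gy peaks that were also tied at 3100. It reached 5191 bp beyond them, the longest extension of any bridging 5 Gy peak. From 69231677 to 69244632 a 5 Gy peak of 12956 bp tied at 3100 spanned 1933 bp between a 0 Gy peak of 7518 bp tied at 3100 and a second of 2961 bp with a score of 714.97. Most gap sequence after chromosome 16 lay under a peak on chromosome 10 (98714707 to 98724185, 9479 bp, score 1948.30), which spanned 4 gaps with a sum of 2693 bp. The 5 peaks of 0 Gy there scored 79.18 to 984.31.

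The longest bridging peaks added little in their gaps. The peak of 18027 bp on chromosome 19 (57801966 to 57819992, tied at 3100) spanned 59 bp between 0 Gy peaks of 17257 and 846 bp. On chromosome 12 a 5 Gy peak of 16286 bp (76462483 to 76478768) spanned 283 bp over 3 peaks of 0 Gy, and its score of 1096.80 was lower than the 3100 of 2 of these. On chromosome 15 a 5 Gy peak of 15614 bp (60674495 to 60690108, tied at 3100) spanned 8 bp between 0 Gy peaks of 4526 and 11355 bp.

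A large rise in score rank needs a low start, and the 5 largest were over 0 Gy peaks that scored at most 79.63. Ranks are percentiles within each list, and peaks tied at 3100 were left aside. A 614 bp peak on chromosome 5 (100145289 to 100145902) stood at percentile 74.5 with a score of 372.91, and the better of its 0 Gy peaks stood at percentile 4.41 with 63.47. A 1679 bp peak on chromosome 2 (9376783 to 9378461, score 275.76) spanned 846 bp between 0 Gy peaks with scores of 62.43 and 62.13. A 2237 bp peak on chromosome 14 (20937572 to 20939808, score 829.35) lay over 0 Gy peaks with scores of 66.56 and 79.63 and extended 1407 bp past them. The other members of this group lay on chromosome 7 (130790708 to 130791851, score 340.90 over 67.16 and 64.29) and chromosome 11 (66285324 to 66286190, score 295.81 over 66.87 and 60.77).

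Narrow gaps were spanned more often than wide ones, and over all gaps of a given width the shares in the 2 directions had overlapping intervals. The 0 Gy list held 47906 pairs of neighbouring peaks, of which 4017 (8.39%) were bridged by a 5 Gy peak, and the 5 Gy list held 36192 such pairs, of which 2582 (7.13%) were bridged by a 0 Gy peak. Of gaps of 1 to 50 bp, 55.8% at 0 Gy (interval 53.8 to 57.7, 2543 pairs) and 57.5% at 5 Gy (interval 55.2 to 59.8, 1742 pairs) were bridged. For gaps of 101 to 200 bp the shares were 30.1% (interval 28.3 to 31.9) and 28.8% (interval 26.7 to 31.0). For gaps from over 500 to 1000 bp they were 4.52% (interval 3.97 to 5.15) and 3.63% (interval 3.02 to 4.35). The intervals of the 2 directions overlapped in all 6 width classes up to 1000 bp. Over all gaps under 1000 bp, 24.1% were bridged at 0 Gy and 24.0% at 5 Gy, a difference of 0.059 percentage points (interval -0.98 to 1.10). Of gaps over 5000 bp, 0 of 19492 at 0 Gy were bridged, and 0 of 17077 at 5 Gy. By the limit of 3 counts that a count of 0 allows, these shares could be up to 0.0154% and 0.0176%.

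The 5 Gy list also held fewer narrow gaps. Gaps of at most 1000 bp numbered 16529 at 0 Gy and 10667 at 5 Gy, or 64.5% as many. Bridged gaps of that width numbered 3977 and 2560, or 64.4% as many. If the 0 Gy gaps of each width class had been bridged at the rate of the 5 Gy gaps, 3890 would have been bridged, against the 3977 counted. Bridging 0 Gy peaks numbered 68.3% of bridging 5 Gy peaks.

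**Figure D2:**
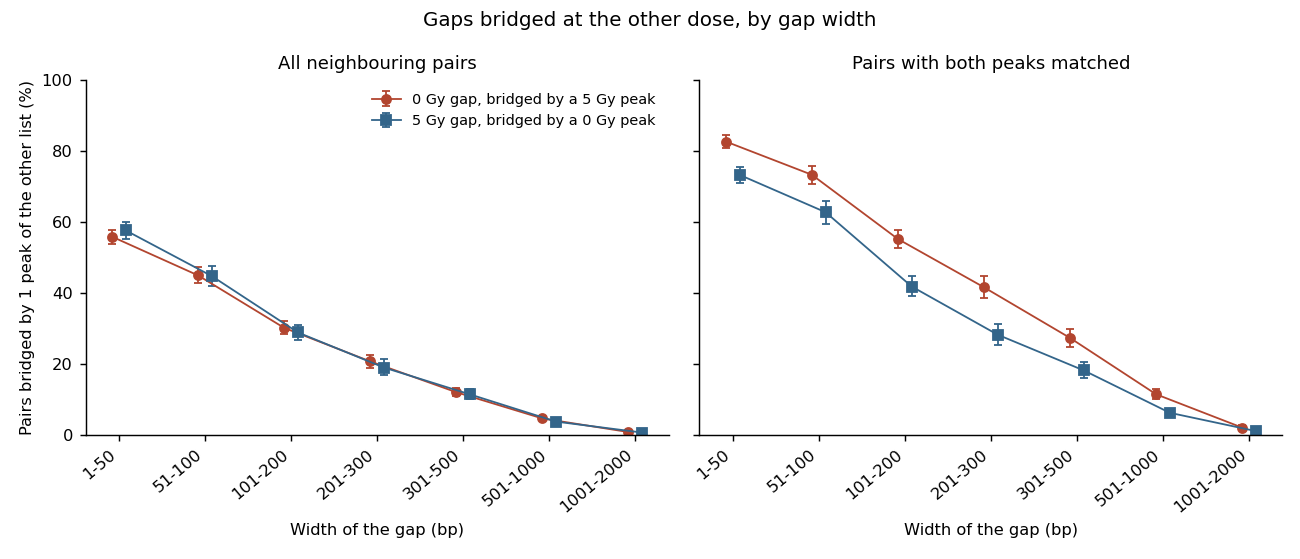
Share of neighbouring peaks of a list (percent, y axis) whose gap was bridged by 1 peak of the other list, by the width of the gap in bp (x axis), with 95% Wilson intervals as bars. In the left panel, over all pairs, the red points (0 Gy gaps) and the blue points (5 Gy gaps) have overlapping intervals up to 1000 bp, from 55.8% and 57.5% to 4.52% and 3.63%. In the right panel, over pairs in which both peaks overlapped a peak of the other list, the red points lie above the blue ones in all classes up to 1000 bp.

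The 2 directions parted when only gaps with a matched peak on each side were counted, where matched means overlapping any peak of the other list. Of such 0 Gy gaps of 1 to 50 bp, 82.6% were bridged (interval 80.7 to 84.3), against 73.2% of the 5 Gy gaps (interval 70.8 to 75.5). At 201 to 300 bp the shares were 41.5% (interval 38.4 to 44.6) and 28.1% (interval 25.2 to 31.3). The intervals were separate in all 6 classes up to 1000 bp. A bridged gap has a match on each side by definition, and gaps with such matches were a smaller share at 0 Gy than at 5 Gy. With near-equal shares bridged over all gaps, the higher shares among matched 0 Gy gaps follow from this. Of the 16522 gaps under 1000 bp at 0 Gy, 24.1% were bridged, 26.6% lay between peaks matched to different 5 Gy peaks, 29.7% had a match on 1 side and 19.7% on neither. Of the 10664 such gaps at 5 Gy, the shares were 24.0%, 42.8%, 24.5% and 8.70%. The near-equal shares over all gaps under 1000 bp also did not hold under every way of counting. With equally long lists, 27.1% (interval 26.2 to 27.9) of the 0 Gy gaps and 23.0% (interval 22.2 to 23.8) of the 5 Gy gaps were bridged. That setting removed the lowest-scoring peaks from the 0 Gy list only. With scores of at least 100 in both lists the shares were 27.2% (interval 26.3 to 28.2) and 26.6% (interval 25.4 to 27.7). With only peaks wholly inside counted, the shares were 5.43% (interval 5.09 to 5.79) and 3.39% (interval 3.06 to 3.75). The intervals were separate under 4 of 7 alternative settings, with the higher share at 0 Gy in each of the 4.

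The weaker neighbour of a gap also went with bridging. For 0 Gy gaps under 1000 bp whose weaker neighbour scored 60 to under 70, 18.1% were bridged (interval 16.9 to 19.4, 3560 gaps), and the share was 36.6% (interval 32.7 to 40.7, 560 gaps) at 500 to under 1000. At scores of at least 1000 it was lower, 28.5% (interval 24.5 to 32.9, 439 gaps). In the reverse case the share ran from 16.7% in the weakest class to 32.3% at 200 to under 500 and 22.3% at scores of at least 1000. In the class of 500 to under 1000 the gaps were narrower than in the weakest, with a median of 183 bp against 307 bp, and 97.7% against 30.1% had a match on each side. Among gaps with a match on each side the share was lower in each stronger class, from 60.2% bridged (interval 57.2 to 63.1) in the weakest class to 28.7% (interval 24.7 to 33.2) at scores of at least 1000. The corresponding 5 Gy gaps ran from 39.1% (interval 35.9 to 42.3) to 22.4% (interval 17.9 to 27.7).

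Long peaks were bridging more often than short ones at both doses. Of 5 Gy peaks up to 500 bp, 1.32% were bridging (205 of 15564), of those from 1001 to 1500 bp 19.5% (interval 18.2 to 20.9), and of those over 6000 bp 37.5% (interval 32.3 to 43.1, 113 of 301). The reverse case rose from 0.829% (224 of 27025) through 13.6% (interval 12.5 to 14.8) to 21.5% (interval 16.9 to 27.0, 54 of 251). At equal length and with the full lists the share was higher at 5 Gy in all 8 length classes, with separate intervals in each and a ratio of 1.32 to 1.75. These classes use the full lists, in which a 5 Gy peak has 47930 peaks to lie against and a 0 Gy peak 36216. With lists of equal size, a setting added to this comparison after the values were seen, the share was higher at 5 Gy in 7 of 8 classes, with ratios of 0.744 to 1.76. The intervals were then separate in 3 classes, all over 2000 bp. Over 6000 bp the shares were 37.2% (interval 31.9 to 42.8) and 21.2% (interval 16.6 to 26.7), and from 1001 to 1500 bp 14.0% and 13.9%. Bridging 5 Gy peaks had a median length of 1382 bp, against 601 bp for 5 Gy peaks over 1 peak of 0 Gy and 421 bp for those over none. A median of 3 other 5 Gy peaks lay within 10 kb of a bridging peak, against 2 for the others. The reverse case had the same form. Bridging 0 Gy peaks had a median length of 1348 bp, against 559 bp over 1 peak of 5 Gy and 359 bp over none. A median of 5 other 0 Gy peaks lay within 10 kb of them, against 3 for the others.

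**Figure D3:**
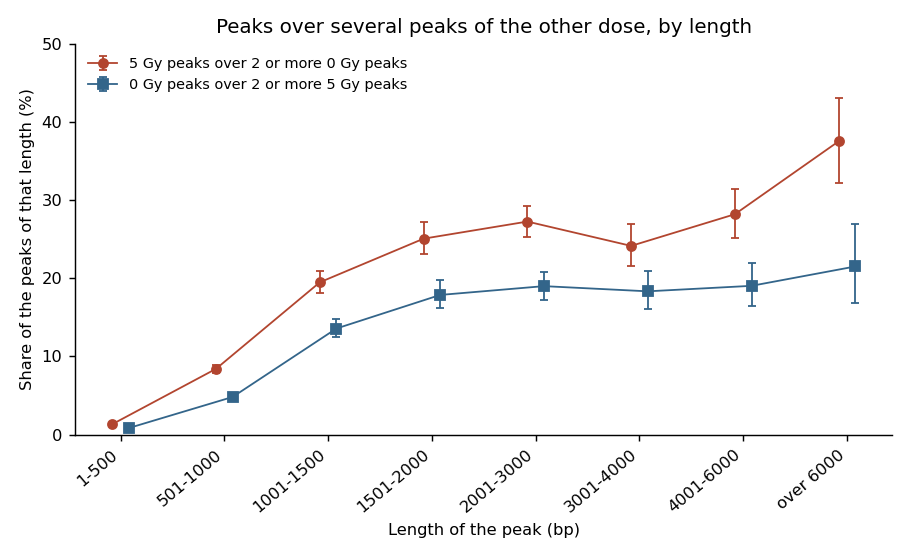
Share of peaks (percent, y axis) that lay over 2 or more peaks of the other list, by the length of the peak in bp (x axis), with 95% Wilson intervals as bars. The 5 Gy peaks (red) run from 1.32% to 37.5% and lie above the 0 Gy peaks (blue, 0.829% to 21.5%) in every class when the full lists are used, as here.

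Fewer bridging 5 Gy peaks scored above the best of their 0 Gy peaks than at or below it. Their median score was 295.8 (interval 284.5 to 310.4), that of their best 0 Gy peak 358.1 (interval 341.1 to 383.1) and that of their lowest 0 Gy peak 114.1 (interval 111.3 to 116.8). The score was above that of all 0 Gy peaks in 1387 cases (41.3%, interval 39.6 to 42.9) and below that of all in 590 (17.6%). As a background, 19750 simple pairs, each of 1 peak per dose that overlapped nothing else, had the higher score at 5 Gy in 32.7% and at 0 Gy in 59.1%, with the rest tied. A bridging peak has several scores to exceed and a simple pair has 1. A bridging 0 Gy peak scored above all its 5 Gy peaks in 1424 cases (62.0%, interval 60.0 to 64.0), against 59.1% of the simple pairs. The scale of the score is not stated and the depth is unknown, so neither share compares the amount of RNA bound.

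Bridging peaks over more peaks had higher scores at both doses. Bridging 5 Gy peaks over 2 peaks of 0 Gy had a median score of 261.1, and 37.7% (interval 35.9 to 39.5) scored above both of them. Over 3 the median was 529.7 and the share 58.1% (interval 53.2 to 62.9), over 4 it was 833.6 and 73.3% (interval 62.4 to 82.0), and over 5 or more, 32 peaks in all, it was 1582 and 75.0% (interval 57.9 to 86.7). Length moved along with the score, from a median of 1199 bp over 2 peaks to 5535 bp over 5 or more, and its part in the scores was not tested. In the reverse case the median score was 373.2 over 2 peaks, 947.9 over 3 and 1275 over 4. There the share above all was 60.2% over 2 peaks and 77.8% over 3. The 457 bridging peaks with all 0 Gy peaks inside were longer and stronger than the others. Their median length was 2380 bp against 1236 bp, their median score 618.2 against 267.7, and 63.2% (interval 58.7 to 67.5) scored above all their 0 Gy peaks, against 37.8% (interval 36.1 to 39.6). In the reverse case the 199 such peaks had a median length of 2346 bp, against 1253 bp for the others. Their median score was 800.6 against 382.9, and 89.9% scored above all their 5 Gy peaks, against 59.3%.

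**Figure D4:**
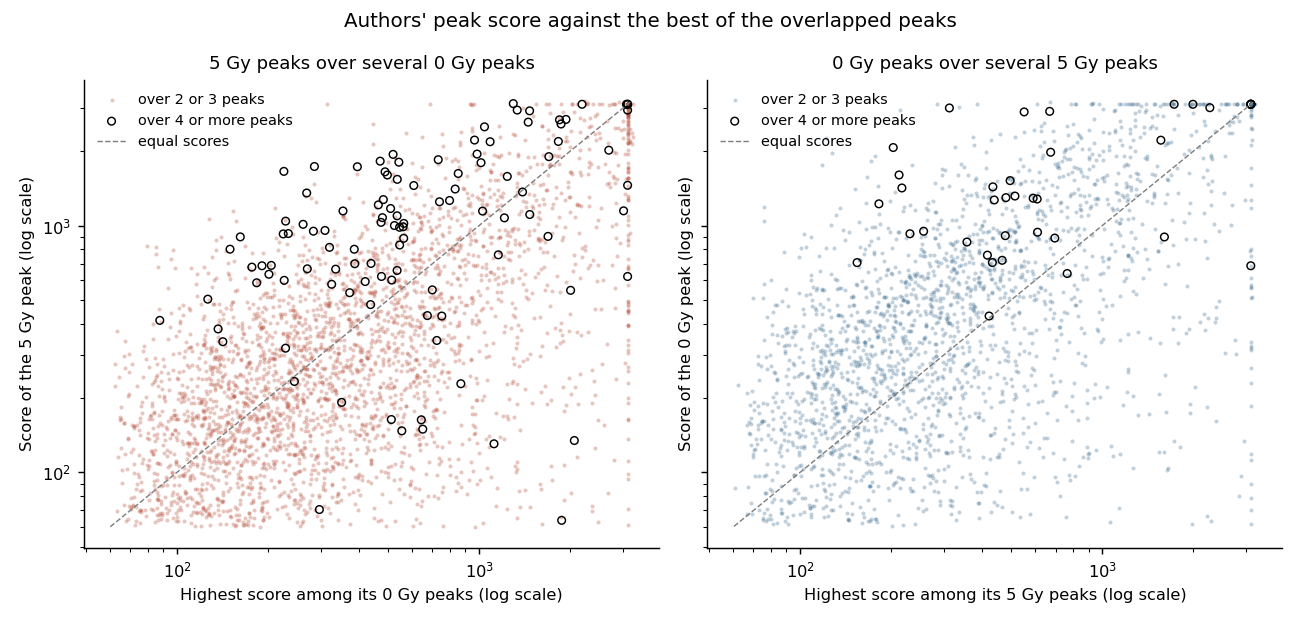
Authors' peak score of each bridging peak (y axis, log scale) against the highest score among the peaks it overlaps (x axis, log scale), for 3361 peaks at 5 Gy (left) and 2297 at 0 Gy (right). Open circles are peaks over 4 or more peaks of the other list, and most lie above the dashed line of equal scores. On the left 41.3% of all points lie above the line and on the right 62.0%, and points in a row at 3100 carry the tied score.

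The strongest examples of the reverse case had the same form as the 5 Gy ones. On chromosome 5 a 0 Gy peak of 9456 bp (14185269 to 14194724, tied at 3100) lay over 7 peaks of the 5 Gy list with scores of 75.42 to 1994.85 and 762 bp of gap. On chromosome 11 a 0 Gy peak of 5427 bp (66420859 to 66426285, score 2070.55) lay over 6 peaks of 5 Gy, none of which scored above 203.19. On chromosome 9 a 0 Gy peak of 6550 bp (130989340 to 130995889, score 2995.54) lay over 5 peaks of 5 Gy with scores of 74.26 to 311.74 and spanned 2457 bp of gap, the most of the reverse case. The widest gaps spanned at 0 Gy were 2229 bp on chromosome 7 (102911398 to 102916550, score 435.98) and 2069 bp on chromosome 10 (102307833 to 102313623, score 273.37).

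The longest 0 Gy peak of the reverse case covered 16943 bp of chromosome 3 (170138950 to 170155892) and spanned 53 bp between 5 Gy peaks of 6257 and 9066 bp, all 3 tied at 3100. The next, on chromosome 5 (14157669 to 14170511), spanned gaps of 1, 44 and 45 bp. The largest falls in rank from a 0 Gy peak to the best of its 5 Gy peaks lay on chromosomes 11 and 17. On chromosome 11 (118392609 to 118397461) a 0 Gy score of 1188.06 stood over 5 Gy scores of 75.83 and 69.06. On chromosome 17 (40475780 to 40476933) a score of 1039.53 stood over 75.66 and 70.98.

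Bridging 5 Gy peaks were spread over the chromosomes. Among the 22 autosomes and X their share of the 5 Gy peaks ran from 7.34% on chromosome 18 (55 of 749) to 11.1% on chromosome 19 (162 of 1456). The interval held the genome-wide 9.28% on 18 of these 23 chromosomes. It lay below that share on chromosomes 4 and 14, and above it on chromosomes 9, 11 and 19. In the reverse case the interval held the genome-wide 4.79% on 17 of 23. Chromosomes 9 (6.67%), 17 (6.04%) and 19 (6.22%) then lay above it, and chromosomes 2, 6 and 8 below.

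Peaks just inside and just outside the rule had similar medians. In 104 bridging 5 Gy peaks (3.09%) the smallest overlap was under 10 bp, with a median length of 709.5 bp and a median score of 144.4. A further 138 peaks overlapped 1 peak of 0 Gy and ended less than 10 bp from a second, with medians of 670.5 bp and 145.1.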

How the data were processed

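The data are 2 deposited lists of peaks, each of 1 HuR library over the IgG library of its dose. Reads were handled with cutadapt 1.9.1 and Bowtie2 2.2.4 on hg19, per the submitters' processing notes. Peak names begin with MACS, per the files. The names of the lists also carry values that have the form of caller settings, without an explanation. The version of MACS and the depth of the libraries are not stated in these sources. The only value per peak is the authors' score, deposited without a stated scale. Scores of 2481 peaks at 0 Gy and 2000 at 5 Gy are tied at 3100, and 85 and 70 lie above it in an order that is not resolved.

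Overlaps were counted in Python 3.11.15 with numpy 2.4.6, pandas 2.3.3 and scipy 1.17.1, ignoring strand, which the lists do not hold. The numbers of bridging peaks were the same with bedtools 2.31.1. As a check of the code, 500 pairs of neighbours among the 47930 peaks of the 0 Gy list were merged, and 100% were found. The rule must find pairs merged at their own borders, and no staggered borders were simulated. The check therefore says nothing on how real bridging peaks arose. Shares have Wilson intervals and medians binomial order-statistic intervals. Regions named are, at 5 Gy, the 5 over most peaks, with most gap sequence, with the widest gap and with the largest rise in percentile, and the 3 longest, and 2 of each in the reverse case. A region that meets several of these is described once. Alternatives varied the overlap, the minimum score, the list sizes, the joining of close peaks and the form of the overlap group. No annotation or genome of hg19 was used, so peaks carry no gene names or sequences. The peaks and measures were chosen with earlier results of these data known.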

Additional observations from a re-analysis of the deposited data

How the results depend on the processing

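Under 7 alternative settings for 6 results, 15 of 42 values stayed near the reported one (counts within 1.5 times, other values within the counting interval) and 27 did not. Bridging peaks were more numerous at 5 Gy under all 7 settings, and their median gap sequence was the longer. The intervals of the 2 medians overlapped with equal numbers of peaks, where they were 89 to 102 bp and 82 to 93 bp. They also overlapped with peaks wholly inside and after joining within 100 bp. The numbers of bridging peaks at 5 Gy and 0 Gy (3361 and 2297) were 2956 and 1951 with at least 50 bp of overlap, 2530 and 2190 with equal numbers of peaks, 1776 and 990 with at least 50% of each overlapped peak inside, 709 and 316 counting only overlapped peaks wholly inside, 1975 and 1362 at scores of at least 100, 1976 and 1345 after joining peaks of a list within 100 bp, and 1995 and 1003 for the only peak of its list in a group. The number of length classes with separate shares, 8, was 3 with equal numbers of peaks. The median gap sequence at 5 Gy was 110 bp with peaks wholly inside, and after joining within 100 bp, which removes the narrow gaps, it was 265.5 bp, with 262 bp at 0 Gy. The share of gaps under 1000 bp that were bridged, 24.1% at 0 Gy and 24.0% at 5 Gy, was 21.2% and 20.4% with at least 50 bp of overlap, 13.2% and 10.6% with 50% inside, 5.43% and 3.39% wholly inside, 27.2% and 26.6% at scores of at least 100, 27.1% and 23.0% with equal numbers of peaks, and 14.5% and 10.5% for the only peak in a group. After joining within 100 bp it was 18.1% and 18.8%, the only setting in which the 5 Gy gaps were bridged more often. No paired analysis was possible because no group holds more than 1 library. Depth, which these lists do not give, limits every comparison of peak borders.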

Other observations

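Some places held bridging peaks of both kinds. Overlapping peaks formed 1101 groups with several peaks of each list, which held 2557 peaks at 5 Gy and 2699 at 0 Gy, and 1995 groups with 1 peak at 5 Gy over several at 0 Gy. The groups and regions named in this part were picked after their values were seen. The group on chromosome 8 from 119091971 to 119108409 held 7 peaks of each list, with 4 bridging peaks at 5 Gy and 3 at 0 Gy. On chromosome 2, from 61731939 to 61745707, there were 6 peaks of each list, of which 4 were bridging at each dose. Within these groups the 5 Gy peaks covered 14842 and 12331 bp and the 0 Gy peaks 16167 and 13260 bp.

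With peaks of both lists within 10 kb joined, bridging 5 Gy peaks lay in 2263 of 15970 regions, of which 1649 held 1 of them and 61 at least 5. Of the bridging 5 Gy peaks, 1997 (59.4%) lay in a region that also held a bridging 0 Gy peak. The share of all 5 Gy peaks in such regions was not computed, so whether 59.4% is high is not known. The most in 1 region was 10, on chromosome 1 from 94632211 to 94713347 (with 8 of the reverse case), on chromosome 11 from 47487220 to 47585297 (with 4) and on chromosome 3 from 180630234 to 180704500 (with 5). Regions with 4 bridging 5 Gy peaks and none of the reverse case lay on chromosome 11 from 89925839 to 89956246, on chromosome 16 from 4475840 to 4536774 and on chromosome 5 from 151149146 to 151191107.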
